A study of Homo sapiens with 4 samples.

Results

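Autophagy encloses cytoplasm, organelles or protein aggregates in a membrane and delivers them to the lysosome. A kinase complex and a lipid kinase complex start the membrane, ubiquitin-like conjugation couples LC3 and GABARAP proteins to it, and cargo receptors link these proteins to what is degraded. Epithelial cells of the colon use the pathway for nutrient supply, organelle turnover and the clearance of damaged proteins, and TFEB and TFE3 are transcription factors known for driving many of its genes.

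The set described here holds 35 genes of this machinery out of 18650 loci that were above 0 in at least 1 library. They were taken by gene symbol and sorted by step into 14 genes of initiation and membrane growth, 11 of conjugation, 8 cargo receptors and 2 transcriptional regulators. All 35 were above 0. GABARAP could not be separated from CLDN7, CTDNEP1 and other neighbours, and ATG9A could not be separated from ABCB6, because these genes carried identical values in the table. ATG16L1 is listed on a patch scaffold of the genome, with a second row at 0. LC3 and GABARAP genes also have near-identical copies whose reads the counting could split.

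The cells were HT-29, an established human line of a colorectal adenocarcinoma, and NCM460, the line the study used as normal colon epithelium. Each line was grown without SCS (control) and with 100 μg/mL sturgeon chondroitin sulfate (SCS), a sulfated polysaccharide from fish cartilage, for 24 h. By the study's methods NCM460 was cultured with more fetal bovine serum than HT-29, so line and serum cannot be told apart where the lines are compared. RNA of the 4 conditions was sequenced as a single library each, so no difference here has a replicate check and no p-value within a line can be given. In bulk RNA, fewer cells expressing a gene and less of its RNA per cell cannot be told apart.

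The values below are whole fragments recovered from the deposited scaled counts. Totals were between 1156568 and 1654764 fragments per library, of which the mitochondrial genome took from 13.8% (HT-29 with SCS) to 62.3% (NCM460 control). This left 507692 nuclear fragments in the NCM460 control and 1383424 in SCS-treated HT-29 cells. Of the 12 colon epithelium markers listed, KRT8, KRT18, KRT19, EPCAM and CDH1 were present in every library, whereas KRT20, VIL1 and LGALS4 were at 0 in both NCM460 libraries. CDX1 and GPA33 were at 0 in all 4, and CDH17 had 1 fragment in the HT-29 control and 0 elsewhere. CDX2, a transcription factor of intestinal epithelium, went the other way, at 0 in both HT-29 libraries and at 14 and 12 fragments in NCM460 without and with SCS. The summed level of these markers was 6526 and 3535 CPM in HT-29 without and with SCS, and 4346 and 2659 CPM in NCM460. The 10 mesenchymal markers summed to 6.35 and 10.4 CPM in HT-29 and to 125 and 135 CPM in NCM460, with CDH2, COL1A2 and COL3A1 at 0 throughout. Most of the NCM460 sum was SPARC, at 83.5 and 94.3 CPM, and VIM had 7 and 4 fragments in NCM460. The part of these differences in the autophagy genes was not tested.

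A log2 fold change was taken from CPM, fragments scaled to library size, with TMM factors over all 4 libraries and a prior count of 2. A gene was called higher or lower when it passed 1.5-fold and its exact 95% counting interval excluded 0. Such an interval covers counting error only, since PCR reads are not independent molecules, and says nothing of how cultures vary. By this rule the colon markers moved in both directions in HT-29, where KRT20, LGALS4 and CDH1 were called higher with SCS and KRT8, KRT18, KRT19 and VIL1 lower, out of 8 compared. In NCM460 EPCAM was called higher and KRT8, KRT18 and KRT19 lower, out of 6 compared, and with a trend on transcript GC content subtracted only the call of EPCAM was left.

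To see which steps of autophagy responded to SCS in the cancer line, the HT-29 libraries were compared first. SCS-treated HT-29 cells had more RNA of 19 of the 35 genes, and none was called lower. Over all 12168 loci compared, 16.8% were called higher and 14.8% lower. The median log2 fold change of the 35 genes was 0.65, against 0.07 over all loci. The log2 fold change was above 0 for 30 of the 35 genes, against 6502 of the 12168 loci.

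**Figure D1:**
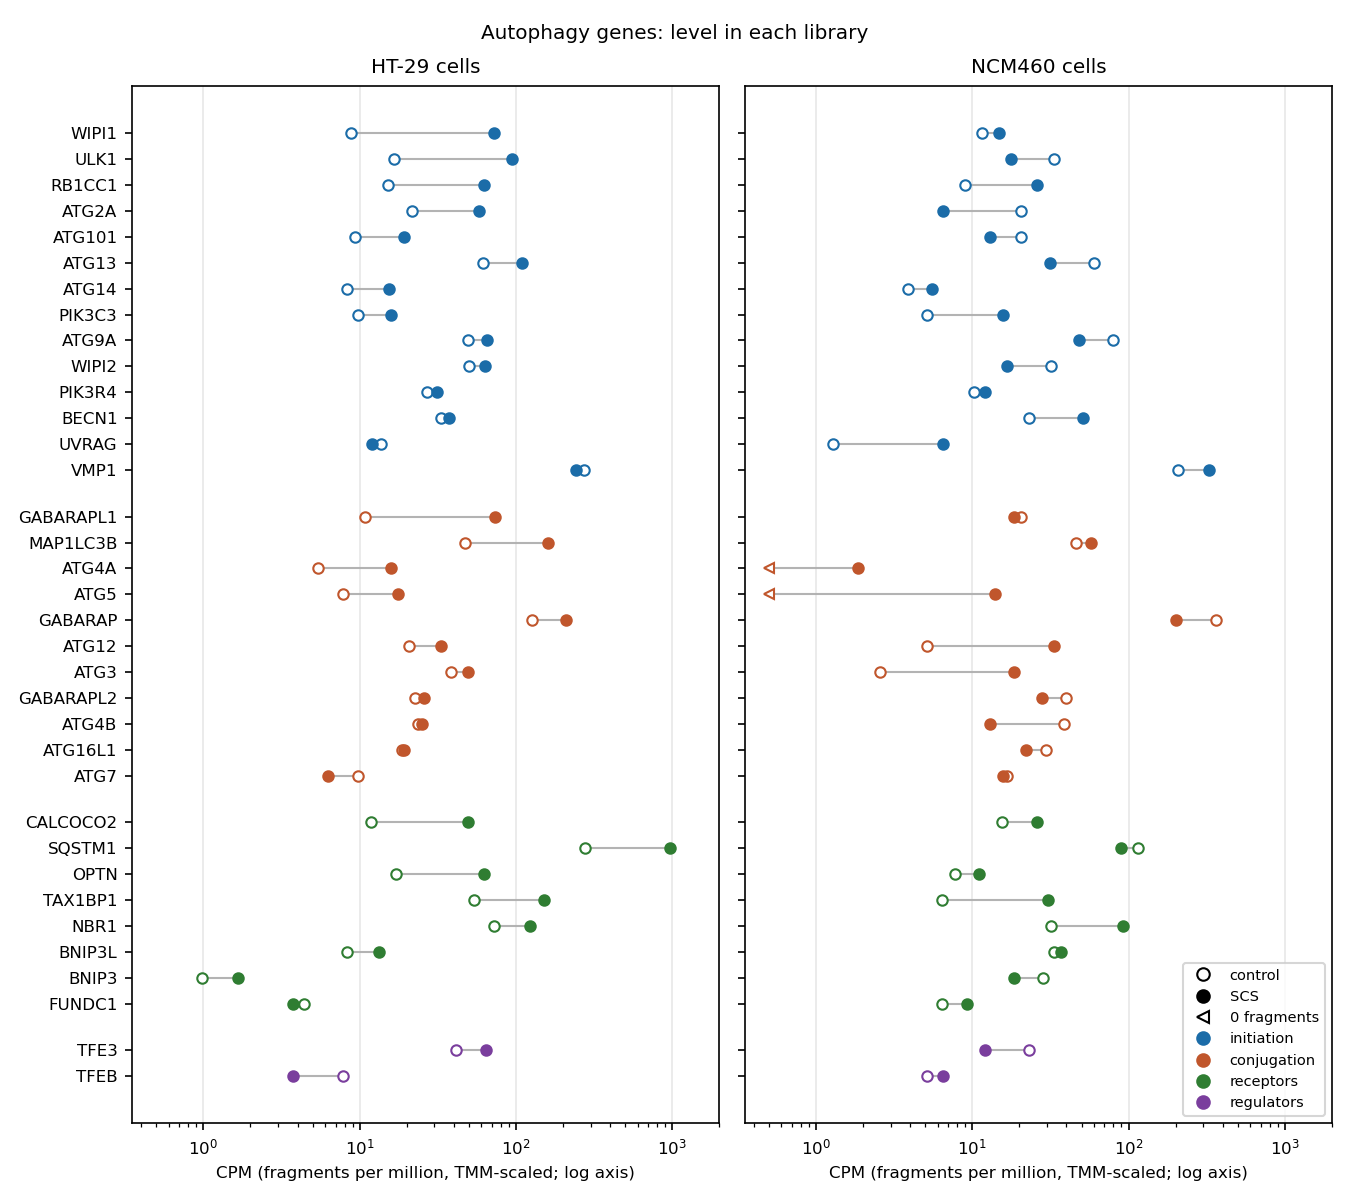
Level of each of the 35 autophagy genes in CPM (log axis) in HT-29 cells (left) and NCM460 cells (right), with open circles for the control library, filled circles for the SCS library and colours for the step. Triangles at the left edge mark 0 fragments. In HT-29 the filled circles of WIPI1, ULK1, GABARAPL1, MAP1LC3B, SQSTM1 and CALCOCO2 lie far to the right of the open ones, and in NCM460 the same 6 pairs lie closer together.

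The initiation kinase complex rose as a whole in HT-29. ULK1, the kinase that starts autophagosome formation (GRCh38, chr12:131894651-131923167), gave 34 fragments in the HT-29 control and 228 with SCS, and 26 and 19 fragments in NCM460. Its log2 fold change in HT-29 was 2.43 (1.99 to 3.08). RB1CC1, the scaffold of that complex, went from 31 to 150 fragments in HT-29 and from 7 to 28 in NCM460, a log2 fold change in HT-29 of 1.96 (1.48 to 2.65). Both partner subunits were called with smaller folds. ATG13, which bridges the kinase to the scaffold, had 125 and 261 fragments in HT-29 and 47 and 34 in NCM460, with a log2 fold change in HT-29 of 0.82 (0.52 to 1.15). ATG101, which stabilises ATG13, had 19 and 46 fragments in HT-29 and 16 and 14 in NCM460, with a log2 fold change in HT-29 of 0.95 (0.24 to 1.90). All 4 subunits of the complex were therefore called higher in HT-29, and the calls of ULK1 and RB1CC1 held under all 14 alternative settings. Those of ATG13 and ATG101 held under 13 of the 14 and were lost at a 2-fold threshold.

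The lipid kinase complex that makes phosphatidylinositol 3-phosphate on the growing membrane was not called as a whole. Of its 5 listed subunits only ATG14, which directs the complex to autophagosome sites, was called in HT-29. It had 17 and 37 fragments in HT-29 and 3 and 6 in NCM460, and its HT-29 log2 fold change of 0.80 (0.03 to 1.81) lost the call under 7 of 14 alternative settings. BECN1, the shared regulatory subunit, had 68 and 89 fragments in HT-29 and was not called, at a log2 fold of 0.15 (-0.32 to 0.63). The catalytic subunit PIK3C3, the membrane anchor PIK3R4 and UVRAG, the partner that takes the place of ATG14 in another form of the complex, were not called in either line. Their HT-29 fragments were 20 and 38 for PIK3C3, 55 and 75 for PIK3R4, and 28 and 29 for UVRAG. The HT-29 log2 fold changes were 0.63 (-0.12 to 1.55), 0.21 (-0.31 to 0.74) and -0.17 (-0.98 to 0.62) in that order. These intervals and that of BECN1 still hold a rise of 1.5-fold, so the missing calls do not show that the subunits were unchanged.

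Among the proteins that read the lipid and extend the membrane, WIPI1 had the largest log2 fold change of the 35 genes in HT-29. This phosphoinositide-binding protein (chr17:68420948-68457513) gave 18 and 173 fragments in HT-29 and 9 and 16 in NCM460, and its HT-29 log2 fold change was 2.86 (2.33 to 3.82). Its homologue WIPI2, which recruits the conjugation machinery, had 103 and 152 fragments in HT-29 and 25 and 18 in NCM460 and was not called in HT-29, at a log2 fold change of 0.32 (-0.04 to 0.70). The intervals of the homologues did not overlap. ATG2A, which moves lipids into the growing membrane, rose from 44 to 139 fragments in HT-29 and had 16 and 7 in NCM460, with an HT-29 log2 fold change of 1.38 (0.93 to 1.95). The lipid scramblase ATG9A, measured together with ABCB6, had 101 and 156 fragments in HT-29 and 62 and 52 in NCM460, and was not called in HT-29, at a log2 fold change of 0.39 (0.02 to 0.77). VMP1, a scramblase of the endoplasmic reticulum, had the highest level per length of the initiation genes in the control libraries, at 99.5 FPKM (fragments per kilobase of transcript, scaled to library size) in HT-29 and 101 FPKM in NCM460. It gave 555 and 577 fragments in HT-29 and a log2 fold change there of -0.18 (-0.35 to -0.01), so that the most abundant gene of the step was among those without a call. Over the step, 7 of 14 genes were called higher in HT-29, and the median log2 fold change was 0.71.

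In the conjugation step, 3 of the 4 genes of LC3 and GABARAP proteins were called higher in HT-29, as were 3 of the 7 genes that process and attach them. GABARAPL1 (chr12:10212458-10223130) gave 22 fragments in the HT-29 control and 177 with SCS, and 16 and 20 in NCM460, with an HT-29 log2 fold change of 2.64 (2.13 to 3.49). MAP1LC3B, the LC3 protein commonly used to follow autophagosomes (chr16:87383995-87404779), gave 96 and 386 fragments in HT-29 and 36 and 62 in NCM460, with an HT-29 log2 fold change of 1.75 (1.45 to 2.11). Both intervals lay above those of the paralogues GABARAP and GABARAPL2. The locus that holds GABARAP had 258 and 501 fragments in HT-29 and 282 and 216 in NCM460. Its HT-29 log2 fold change was 0.72 (0.51 to 0.95), and it was the most abundant of the step per length, at 96.9 FPKM in the HT-29 control and 320 FPKM in the NCM460 control. GABARAPL2 had 46 and 62 fragments in HT-29 and was not called, at a log2 fold change of 0.19 (-0.37 to 0.78).

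Among the enzymes, ATG4A, a protease that trims GABARAP and LC3 proteins before conjugation, had 11 and 38 fragments in HT-29 and 0 and 2 in NCM460, and its HT-29 log2 fold change was 1.36 (0.56 to 2.67). ATG5, which forms the ligase together with ATG12 and ATG16L1, had 16 and 42 fragments in HT-29 and 0 and 15 in NCM460, with an HT-29 log2 fold change of 1.04 (0.30 to 2.09). ATG12, the ubiquitin-like partner of ATG5, had 42 and 79 fragments in HT-29 and 4 and 36 in NCM460, with an HT-29 log2 fold change of 0.65 (0.12 to 1.26). These are low counts, and the calls of ATG4A and ATG12 were lost when the libraries were thinned to the smallest nuclear total. That of ATG12 was also lost at a 2-fold threshold and with a trend on GC content or length subtracted, at a log2 fold change of 0.39 (-0.13 to 1.0) for GC. The other enzymes were not called in HT-29. They were ATG3, the conjugating enzyme (79 and 118 fragments), ATG4B, the main LC3 protease (48 and 60), ATG7, the activating enzyme (20 and 15), and ATG16L1, the membrane-binding part of the ligase (38 and 46). Over the step, 6 of 11 genes were called higher in HT-29 with a median log2 fold change of 0.65.

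Among the cargo receptors, which hold cargo and LC3 proteins together, all 5 known for ubiquitinated cargo were called higher in HT-29, and none of the 3 known for mitochondria was called there. SQSTM1 (chr5:179806398-179838078), also known as p62, was the most abundant of the 35 genes per length in HT-29, at 162 FPKM in the control and 555 FPKM with SCS. It gave 561 and 2307 fragments in HT-29 and 89 and 96 in NCM460, with an HT-29 log2 fold change of 1.80 (1.67 to 1.94), the narrowest interval among the 19 called genes. CALCOCO2, known as NDP52 and as a receptor of invading bacteria (chr17:48830988-48866522), had 24 and 119 fragments in HT-29 and 12 and 28 in NCM460, with an HT-29 log2 fold change of 1.97 (1.44 to 2.78). OPTN, a receptor also known for damaged mitochondria, had 35 and 150 fragments in HT-29 and 6 and 12 in NCM460, with an HT-29 log2 fold change of 1.79 (1.33 to 2.44). The remaining pair had called changes in the other line too. There the counting intervals of CALCOCO2 and OPTN overlapped those of the pair, so a missing call does not set these receptors apart. TAX1BP1 (chr7:27739331-27844564) had 110 and 362 fragments in HT-29 and 5 and 33 in NCM460, with an HT-29 log2 fold change of 1.46 (1.17 to 1.81). NBR1, a receptor of aggregates and peroxisomes (chr17:43170481-43211689), had 147 and 293 fragments in HT-29 and 25 and 99 in NCM460, with an HT-29 log2 fold change of 0.75 (0.47 to 1.06).

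BNIP3, BNIP3L and FUNDC1 sit in the outer mitochondrial membrane, and BNIP3 and BNIP3L are known as hypoxia-induced genes. BNIP3 was near the limit of detection in HT-29, with 2 and 4 fragments, and had 22 and 20 fragments in NCM460. BNIP3L had 17 and 32 fragments in HT-29 and 26 and 40 in NCM460, and FUNDC1 had 9 and 9 in HT-29 and 5 and 10 in NCM460. A change of 1.5-fold could not be resolved at these depths for BNIP3, BNIP3L and FUNDC1. In HT-29 BNIP3L passed 1.5-fold, at a log2 fold change of 0.61, but its interval of -0.21 to 1.62 held 0. The summed level of the 8 receptors was 442 CPM in the HT-29 control and 1363 CPM with SCS, against 244 and 313 CPM in NCM460, and most of the HT-29 difference was SQSTM1.

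The regulators went in no common direction. TFE3 was called higher in HT-29, with 84 and 155 fragments there and 18 and 13 in NCM460, and a log2 fold change in HT-29 of 0.64 (0.26 to 1.05) that lost its call under 3 of 14 alternative settings, a 2-fold threshold among them. TFEB had 16 and 9 fragments in HT-29 and 4 and 7 in NCM460, and was not called in either line.

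**Figure D2:**
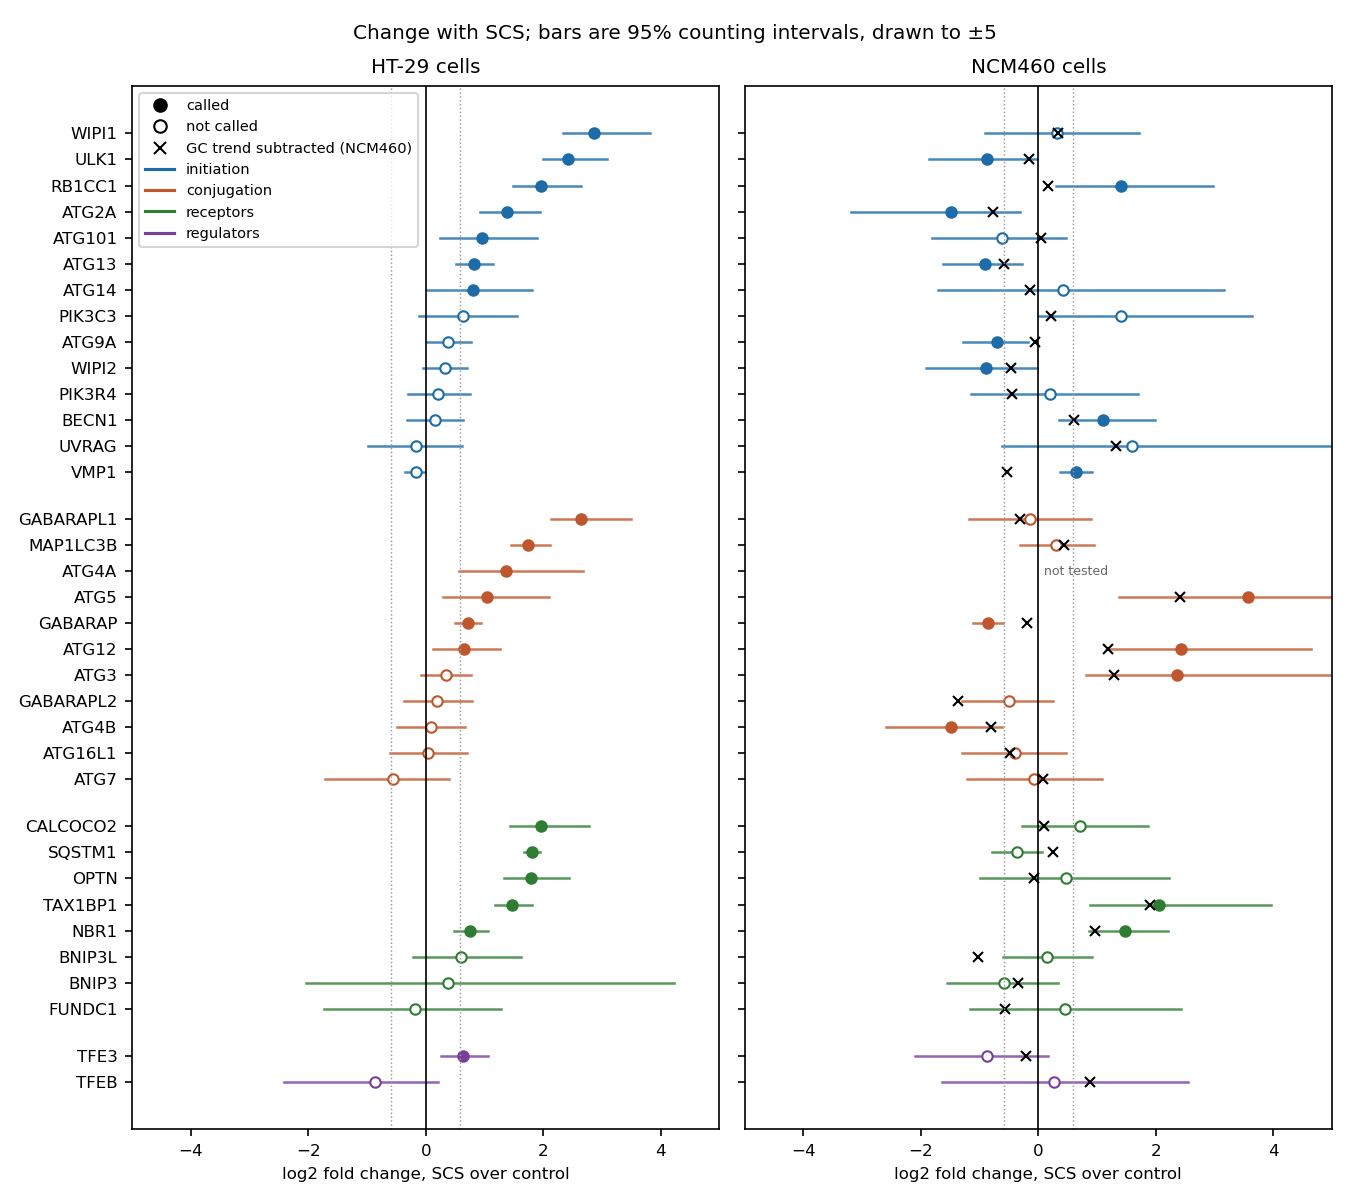
Log2 fold change of SCS over control for each gene in HT-29 (left) and NCM460 (right), with bars for the 95% counting interval, filled points for called genes, dotted lines at 1.5-fold and crosses for the NCM460 value after the GC trend was subtracted. The 19 filled points in HT-29 all lie to the right of 0, whereas in NCM460 8 lie to the right and 7 to the left and most of the crosses lie nearer to 0.

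The promoters of the 35 genes, called or not, were searched for binding motifs of factors known to act on autophagy and stress genes. The search covered the 250 bases before each start in RefSeq (GRCh38.p14), on both strands. The table held 41 promoters of 32 of the 35 genes, since some genes have several starts, and none for RB1CC1, UVRAG and BNIP3L. The full CLEAR element of 10 bases, bound by TFEB and TFE3, was in none of the 41 and in 0.308% of all 35116 promoters. Its core CACGTG was in 3 of the 41, those of ATG3, ATG14 and BNIP3, and in 6.34% of all promoters. The C/EBP-ATF response element, TGATGNAA, was in none of the 41 and in 3.14% of all. The antioxidant response element core, TGACNNNGC, was in 3 of the 41, those of MAP1LC3B, ATG101 and CALCOCO2, and in 10.9% of all. The hypoxia response element core, ACGTG, which also lies inside CACGTG, was in 12 of the 41, each of another gene, and in 18.5% of all. A match describes these letters in this window and not a bound site, and no match says only that the letters are not in the window.

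Shown here are 4 promoters of genes called higher in HT-29 that hold such a motif, taken in order of their HT-29 change, each 250 bases long and 5′ to 3′ along the gene, with the motif in capitals. They are CALCOCO2 (chr17:48830785-48831034, plus strand, log2 fold change 1.97), MAP1LC3B (chr16:87392086-87392335, plus strand, 1.75), ATG4A (chrX:108091528-108091777, plus strand, 1.36) and ATG5 (chr6:106325438-106325687, minus strand, 1.04). In CALCOCO2 the capitals are the antioxidant core, starting 129 bases before the start, and the hypoxia core at 61 bases. In MAP1LC3B they are the antioxidant core at 46 bases, and in ATG4A and ATG5 the hypoxia core at 213 and 86 bases.
CALCOCO2: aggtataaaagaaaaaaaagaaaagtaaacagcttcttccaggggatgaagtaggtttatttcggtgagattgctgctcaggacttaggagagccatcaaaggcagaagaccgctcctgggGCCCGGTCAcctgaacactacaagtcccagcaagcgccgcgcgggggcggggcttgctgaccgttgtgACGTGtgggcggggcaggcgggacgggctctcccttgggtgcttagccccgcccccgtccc
MAP1LC3B: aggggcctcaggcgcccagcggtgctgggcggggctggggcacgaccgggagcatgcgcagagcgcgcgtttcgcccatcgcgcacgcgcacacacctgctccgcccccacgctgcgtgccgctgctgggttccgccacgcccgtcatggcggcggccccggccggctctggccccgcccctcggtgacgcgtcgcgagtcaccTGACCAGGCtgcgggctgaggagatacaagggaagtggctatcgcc
ATG4A: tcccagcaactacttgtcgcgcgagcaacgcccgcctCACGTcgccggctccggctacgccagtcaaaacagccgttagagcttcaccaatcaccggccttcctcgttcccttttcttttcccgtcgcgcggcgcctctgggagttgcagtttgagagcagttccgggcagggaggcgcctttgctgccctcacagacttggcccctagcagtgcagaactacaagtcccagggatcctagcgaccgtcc
ATG5: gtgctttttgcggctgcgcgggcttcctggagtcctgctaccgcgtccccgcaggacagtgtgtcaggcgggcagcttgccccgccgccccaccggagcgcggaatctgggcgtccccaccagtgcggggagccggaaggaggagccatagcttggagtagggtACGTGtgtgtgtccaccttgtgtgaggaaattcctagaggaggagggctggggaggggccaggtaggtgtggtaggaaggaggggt

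The same comparison in NCM460 cells asks whether the line used as normal colon responded alike. In NCM460, 8 of the 34 genes compared were called higher with SCS and 7 lower, against 15.4% of 12657 loci called higher and 13.8% lower. ATG4A, with 0 and 2 fragments, was under the minimum level. The median log2 fold change of the 34 genes was 0.24, against 0.03 over all loci. NCM460 changes of all loci followed the GC content of the transcript, with a Spearman rho of -0.63 over 12600 loci and -0.79 over the 34 genes, where HT-29 had -0.12 over 12106 loci and 0.08 over the 35 genes. These rho values describe genes of the same 2 libraries, which are not independent points. With the GC trend of all loci subtracted, 3 of the 34 genes were called higher and 2 lower in NCM460, against 5.59% and 6.25% of all loci, and the median became -0.06. In HT-29 17 genes were still called higher and none lower after the same step, against 14.5% and 16.0% of all loci. Each NCM460 change is therefore given with its value after subtraction.

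**Figure D3:**
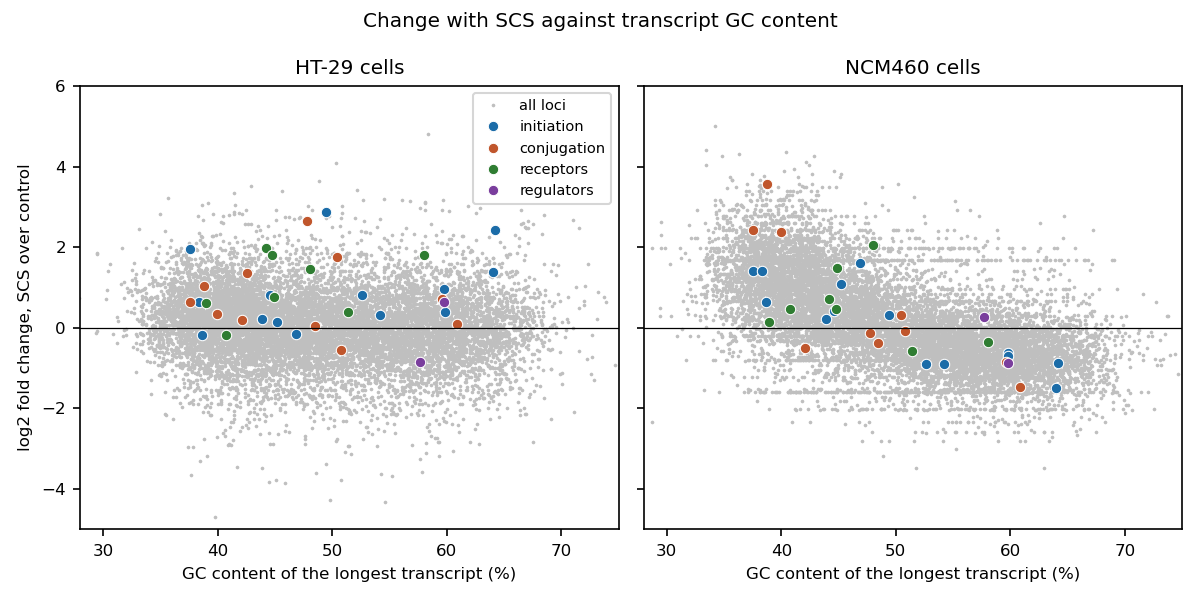
Log2 fold change of SCS over control against the GC content of the longest transcript (percent), with grey points for all loci and coloured points for the autophagy genes by step, in HT-29 (left) and NCM460 (right). In NCM460 the grey cloud and the coloured points slope down together (Spearman rho -0.63 and -0.79), and in HT-29 neither does (rho -0.12 and 0.08).

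In NCM460 3 genes were called higher both as counted and with the GC trend subtracted. ATG5, at 0 fragments in the control and 15 with SCS, had an SCS level at least 3.60-fold higher than a floor of 3 fragments, and its counting interval started at a log2 value of 1.37 as counted and 0.20 with the trend subtracted. TAX1BP1, at 5 and 33 fragments, changed in NCM460 by a log2 value of 2.05 (0.88 to 3.96) and of 1.91 with the trend subtracted. NBR1, at 25 and 99 fragments, had 1.48 (0.87 to 2.21) and 0.96 with the trend subtracted. These 3 genes were also the ones called higher in both lines with the trend subtracted in both. As counted, RB1CC1 and ATG12 were called higher in both lines as well. The share of all loci called higher in both lines was not counted, so these genes cannot be set against it. In NCM460 the log2 fold change of RB1CC1 was 1.40 (0.30 to 2.97) and 0.16 with the trend subtracted, and that of ATG12 was 2.43 (1.22 to 4.65) and 1.19 (-0.03 to 3.40), so that neither kept its call.

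The other NCM460 genes called higher were BECN1, VMP1 and ATG3, which were not called in HT-29. In NCM460 BECN1 counted 18 and 55 fragments, with a change of 1.10 (0.35 to 1.99) on the log2 scale that was 0.61 with the trend subtracted and -0.39 by the deposited FPKM. VMP1 counted 162 and 351 fragments there, with a change of 0.64 (0.37 to 0.92) that turned to -0.54 with the trend subtracted. ATG3 counted 2 and 20, with a fitted change of 2.37 (0.81 to 5.99) that was 1.28 (-0.28 to 4.91) with the trend subtracted. None of the 3 was called once the trend was subtracted.

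All 7 genes called lower in NCM460 lost that call with the GC trend subtracted and with scaling by total fragments only, which moved the median of all loci by 0.62. They were ULK1, ATG13, WIPI2, ATG2A and ATG9A of initiation and GABARAP and ATG4B of conjugation, with transcripts of 52.6% to 64.2% GC. The lowest was ATG2A, at 16 and 7 fragments, whose log2 fold change in NCM460 was -1.49 (-3.19 to -0.30), which was -0.77 with the trend subtracted. ATG4B, at 30 and 14 fragments, had -1.49 (-2.60 to -0.61) and -0.80. ATG13 had -0.91 (-1.62 to -0.27) and -0.58, WIPI2 had -0.90 (-1.91 to -0.02) and -0.46, and ULK1 had -0.88 (-1.86 to -0.02) and -0.16. For the shared loci, that of GABARAP had -0.85 (-1.12 to -0.60) and -0.20, and that of ATG9A had -0.71 (-1.29 to -0.17) and -0.05. With the trend subtracted, the 2 genes called lower were GABARAPL2, with 31 and 30 fragments and a log2 value of -1.37 (-2.16 to -0.62), and BNIP3L, with 26 and 40 fragments and -1.02 (-1.76 to -0.24). Neither was called as counted.

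The genes that rose most in HT-29 were not called in NCM460 in most cases. SQSTM1 had an NCM460 log2 fold change of -0.36 (-0.80 to 0.07), MAP1LC3B 0.30 (-0.30 to 0.95), GABARAPL1 -0.14 (-1.17 to 0.89), WIPI1 0.32 (-0.91 to 1.72), OPTN 0.46 (-1.0 to 2.23) and CALCOCO2 0.70 (-0.27 to 1.86). Except for SQSTM1, these intervals as counted still hold a rise of 1.5-fold or more in NCM460, at control counts of 6 to 36 fragments, so that the depth of NCM460 sets a limit there. With the GC trend subtracted SQSTM1 had 0.25 (-0.19 to 0.68), an interval that holds such a rise as well. The other subtracted values were 0.43 for MAP1LC3B, -0.31 for GABARAPL1, 0.34 for WIPI1, -0.07 for OPTN and 0.09 for CALCOCO2, and none was called. For 14 of the 35 genes the NCM460 control had under 10 fragments, and for 2 the HT-29 control had.

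**Figure D4:**
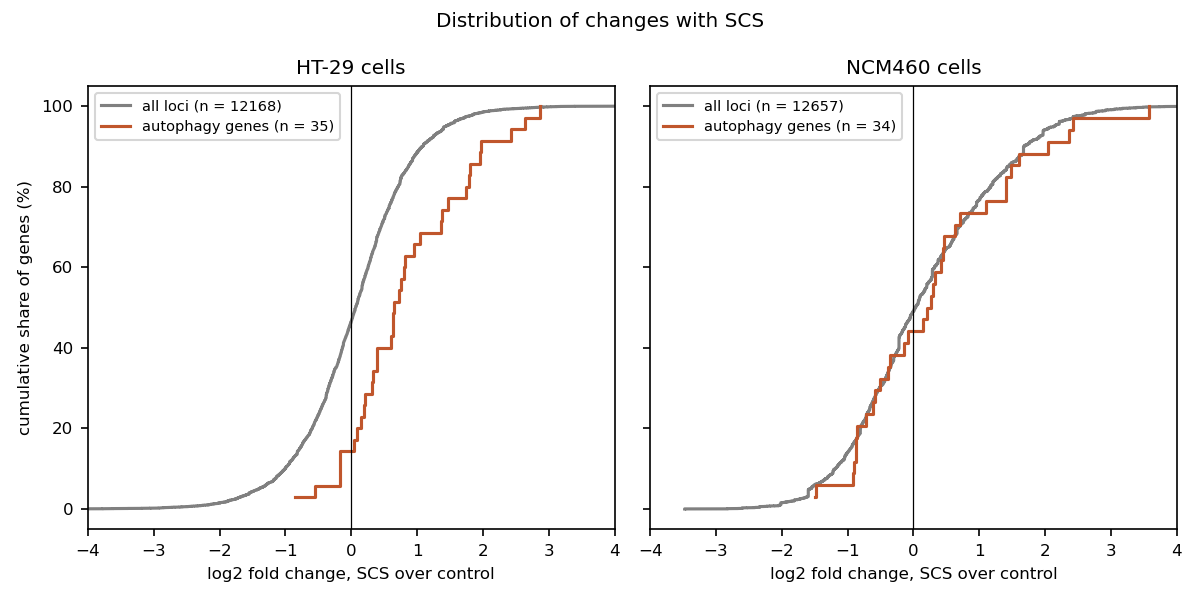
Cumulative share (percent) of log2 fold changes of SCS over control, with a red line for the autophagy genes and a grey line for all loci, in HT-29 (left, 35 genes and 12168 loci) and NCM460 (right, 34 genes and 12657 loci). The red line lies to the right of the grey one over most of its length in HT-29 (medians 0.65 and 0.07) and close to it in NCM460 (medians 0.24 and 0.03).

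Whether the response differed between the lines was read from the difference of the log2 fold changes (HT-29 minus NCM460), with an exact counting interval. This difference has no replicate check either. Its interval lay above 0 for 14 of 34 genes and below 0 for 5, against 13.0% and 17.4% of 10849 loci. With the GC trend subtracted in both lines, it lay above 0 for 12 and below 0 for none, against 9.83% and 12.4% of loci. As counted, the widest gap was that of ULK1, a difference of 3.31 (2.36 to 4.52), or 2.58 (1.63 to 3.80) with the trend subtracted. ATG2A had a difference of 2.87 (1.61 to 4.69) and 2.15 with the trend subtracted. GABARAPL1 had 2.78 (1.66 to 4.17) as counted and the widest gap with the trend subtracted, at 2.97 (1.84 to 4.35). WIPI1 had 2.54 (1.10 to 4.17) and 2.54 with the trend subtracted, and SQSTM1 had 2.16 (1.72 to 2.62) and 1.61. For MAP1LC3B the difference was 1.45 (0.74 to 2.17) and 1.33 with the trend subtracted. These 6 genes therefore had larger changes in HT-29 beyond counting error on both scales. For TAX1BP1 the difference was -0.58 (-2.51 to 0.65), an interval wide enough to hold equal changes and unequal ones.

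A change common to both lines was tested over the 4 libraries with edgeR's quasi-likelihood test, with terms for line and treatment, which left 1 residual degree of freedom. The spread in this test is that between these 4 libraries, which may be technical. The test called none of the 35 genes at an adjusted p (Benjamini-Hochberg over 12942 loci) under 0.05, with 0.0695% of all loci called. At an unadjusted p under 0.05 it gave 7 of the 35, namely RB1CC1, WIPI1, GABARAPL1, ATG5, ATG12, TAX1BP1 and CALCOCO2, against 5.39% of all loci. TAX1BP1 had the smallest p, with an edgeR adjusted p = 0.564 and a shared log2 fold change of 1.76, higher with SCS in both lines. A low p here does not mean equal changes, since those of GABARAPL1 and WIPI1 differed between the lines beyond counting error. With the GC trend subtracted, ATG12 left the list of unadjusted p under 0.05, and ULK1, MAP1LC3B, SQSTM1 and OPTN entered it. The smallest edgeR adjusted p was then 0.0817, that of TAX1BP1, and the share of all loci was not counted. DESeq2 gave an adjusted value only for ATG13, VMP1, MAP1LC3B, GABARAP, SQSTM1 and NBR1, and none of these was called. The rest of the 35 genes had no adjusted value and could not be called, whatever their change. Over all loci, with or without an adjusted value, 0.209% were called. By DESeq2 1 of the 35, TAX1BP1, had an unadjusted p under 0.05, against 1.78% of all loci.

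The controls of the lines were compared as well. The 2 controls are the same libraries against which SCS was compared above, so these values share their counting error. Of the 35 genes, 10 were higher in HT-29 and 8 in NCM460, against 25.3% and 23.1% of 12691 loci, shares near those of the 35 genes. With the GC trend subtracted 7 of the 35 were higher and 6 lower in HT-29, against 2355 and 2428 of 12648 loci, again near those shares. SQSTM1 was higher in the HT-29 control, with 561 against 89 fragments and a log2 fold of HT-29 over NCM460 of 1.25 (0.94 to 1.60). TAX1BP1 was higher there too, with 110 against 5 fragments and a log2 fold of 2.84 (1.80 to 4.72). Both mitochondrial receptors known as hypoxia genes were lower in HT-29. BNIP3 gave 2 fragments against 22, a log2 fold of -3.72 (-7.99 to -2.83), and BNIP3L gave 17 against 26, a log2 fold of -1.86 (-2.98 to -1.07). These 4 directions held under total-fragment scaling, which moved the median of all loci by 1.02, and with the GC trend subtracted. For MAP1LC3B, with 96 and 36 fragments, the controls had a log2 fold of 0.02 (-0.54 to 0.62), and its log2 fold change with SCS was 1.75 in HT-29 and 0.30 in NCM460.

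To place the 35 genes among their neighbours in the pathway, 49 other autophagy genes were counted in the same way. In HT-29, 19 of the 43 compared were called higher and none lower, with a median log2 fold change of 0.49, against the 16.8% and 14.8% of all loci given above. With the GC trend subtracted, 15 were called higher and 1, ATL3, lower. TP53INP2, which binds LC3 and GABARAP proteins and stimulates autophagosome formation, had the largest rise, from 16 to 195 fragments in HT-29 (log2 fold change 3.18, 2.64 to 4.21), and had 32 and 19 in NCM460 (-1.17, -2.13 to -0.36). The lowest, ATG4D, a further protease of the ATG4 family, had 15 and 12 fragments in HT-29 and was not called (log2 fold change -0.46, -1.78 to 0.64). In NCM460, 11 of 44 were called higher and 7 lower, against 15.4% and 13.8% of all loci, counts that fell to 2 and 2 with the GC trend subtracted. There the largest rise was that of SEC62, a receptor for endoplasmic reticulum, at 2 and 25 fragments (log2 fold change 2.67, 1.17 to 6.29), and its value was 1.39 (-0.11 to 5.01) with the trend subtracted. The largest fall as counted was that of ATG4D, with 25 and 11 fragments and -1.54 (-2.83 to -0.58), or -0.82 (-2.10 to 0.14) with the trend subtracted. TMEM41B, SEC62, TBK1 and FOXO3 were called higher in both lines. FOXO3, a transcription factor of autophagy genes, kept both calls with the trend subtracted, at 85 and 213 fragments in HT-29 (1.07, 0.72 to 1.47) and 20 and 71 in NCM460 (1.31, 0.62 to 2.15). AMBRA1, WDR45, YKT6, PLEKHM1 and TP53INP2 were called higher in HT-29 and lower in NCM460, where only the locus of WDR45 was still called lower with the trend subtracted. The share of all loci called in both lines, alike or in opposite directions, was not counted, so these genes cannot be set against it.

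Genes upstream of autophagy were counted as well. Of 32 genes of mTORC1, which restrains autophagy, its inhibitors, the Rag GTPases and AMPK, 29 were compared in HT-29, of which 5 were called higher and 1 lower, with a median log2 fold change of 0.13. This is near the 16.8% of all loci called higher in HT-29, and 3 were called higher and 1 lower with the GC trend subtracted. The largest rise was that of DDIT4, a stress-induced inhibitor of mTORC1, with 22 and 242 fragments in HT-29 (3.08, 2.60 to 3.93) and 134 and 119 in NCM460 (-0.64, -1.01 to -0.28, or -0.03 with the GC trend subtracted). None of the 6 genes of mTORC1 itself was called in HT-29. The only one called lower there was LAMTOR2, a subunit of the lysosomal Ragulator anchor, at 42 and 24 fragments (log2 fold change -0.95, -1.83 to -0.28). In NCM460 3 of 31 were called higher and 6 lower, against 15.4% and 13.8% of all loci, and 1 and 2 with the GC trend subtracted. Among those lower was RPTOR, the substrate-binding subunit of mTORC1, at 78 and 36 fragments (log2 fold change -1.55, -2.20 to -1.0), which stayed called at -0.89 (-1.54 to -0.34) with the trend subtracted. FNIP1, a partner of the Rag regulator folliculin in a shared locus, was called higher in both lines as counted, at 127 and 236 fragments in HT-29 and 12 and 47 in NCM460, and in neither with the trend subtracted. The largest rise in NCM460 at a mean of at least 5 CPM was that of PRKAA2, a catalytic subunit of AMPK that was at 0 in both HT-29 libraries, with 6 and 26 fragments in NCM460 and a log2 change of 1.5 (0.33 to 3.21), or 0.16 with the trend subtracted.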

How the data were processed

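Total RNA from each line and treatment was made into 1 library and sequenced as paired ends. The submitters' processing notes name bcl2fastq 2.17.1.14, cutadapt 1.9.1, Bowtie2, HTSeq 0.6.1 and hg19, whereas the table's coordinates are GRCh38 and the study's methods name Cuffdiff. The library kit does not mark strand, so a gene and an antisense partner cannot be told apart. The authors filtered reads for adapters, poly-N stretches and quality. The deposited count columns are a signal, fragments that the authors scaled per library. The deposited FPKM columns are fragments per kilobase of transcript and library size.

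Division by the worth of 1 fragment (0.686, 0.577, 2.04 and 1.33 in HT-29 control, HT-29 with SCS, NCM460 control and NCM460 with SCS) gave whole numbers within 0.05 for 99.8% to 99.9% of the values above 0, and for 100% under 200 fragments. Rows with identical values in every column were merged into 18650 loci, of which 1812 hold more than 1 gene. The 26 rows without a gene name, at most 0.0352% of a library, were left out. Fragments were scaled by edgeR 4.0.16 TMM over all 4 libraries (R 4.3.3), and loci under a mean of 1 CPM were not compared. The floor of 3 fragments is 1.47, 1.25, 3.85 and 2.77 CPM in the same order of libraries. Counting intervals are Clopper-Pearson, exact, on the share of fragments in one library (scipy 1.17.1), and those of a difference between lines are exact conditional intervals of the odds ratio. GC content came from the longest GENCODE 29 transcript, found for 98.9% of loci, and its lowess trend (span 0.3, statsmodels 0.14.6) was subtracted as an alternative. The count tests of edgeR and DESeq2 1.42.0 on the recovered fragments were fitted only for the change shared by both lines, where they called 9 and 27 of 12942 loci at an adjusted p under 0.05.

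The members, the comparison lists, the motifs and the tests were chosen with earlier results of these data known. All 35 genes are accounted for, those called in a line are named with the fragments of all 4 libraries, and of the 2 comparison lists the largest rise and fall per line (mean 5 CPM or more) are named, with any gene called in both lines. Alternatives were DESeq2 size factors, total fragments, TMM on nuclear fragments or within a line, the authors' scaling, a prior count of 0.5, no filter, a mean of at least 5 CPM, trends on GC, length or expression, thinning to 507692 nuclear fragments, a 2-fold threshold, and log2 of the deposited FPKM plus 1. Leaving out the shared loci of GABARAP and ATG9A was added after seeing the data.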

Additional observations from a re-analysis of the deposited data

Results flagged for a closer look

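Called changes went in opposite directions in the lines for 4 genes, each with 1 library per condition. Of all loci, 16.8% were called higher in HT-29 and 13.8% lower in NCM460. The share of loci with both calls was not counted, so these 4 cannot be set against it. The log2 fold change with SCS was 2.43 in HT-29 and -0.88 in NCM460 for ULK1, 0.82 and -0.91 for ATG13, 1.38 and -1.49 for ATG2A, and 0.72 and -0.85 for the locus of GABARAP. The counting interval of the difference excluded 0 for all 4, also with the GC trend subtracted, but between replicates the difference was not tested. With the trend subtracted the NCM460 values were -0.16, -0.58, -0.77 and -0.20 in the same order and none was called, while the HT-29 calls held.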

How the results depend on the processing

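Of the values recomputed under each setting, 1339 stayed within the spread of the main ones and 72 moved further. The other 10, all of genes called in that comparison, turned sign. None of these was in HT-29, 2 were in NCM460 and 8 between the controls. Values of genes without a call that turned sign are not among these 10. In HT-29 they include VMP1 (0.0994 with total fragments), BECN1 (-0.41 by FPKM) and BNIP3L (-0.34 when thinned). In NCM460 they include SQSTM1 (0.25 with the GC trend subtracted) and MAP1LC3B (-0.94 by FPKM). The 19 HT-29 genes called higher became 12 at 2-fold and 17 with the GC trend subtracted, and by the fold of the deposited FPKM alone 2 genes passed 1.5-fold downward. In NCM460 the 8 genes called higher became 13 with total fragments and 3 with the GC trend subtracted. The 7 called lower became 0 with total fragments, 2 with the GC trend subtracted, 2 at 2-fold and 14 by FPKM. The NCM460 median of 0.24 became 0.79 with total fragments and -0.54 by FPKM. Total fragments moved the median of all loci by 0.24 in HT-29, 0.62 in NCM460 and 1.02 between the controls, and FPKM moved it by -0.16, -0.30 and -0.44. Of the controls, 21 genes were higher in HT-29 with total fragments, and the 8 called lower became 1 with total fragments, 4 at 2-fold and 17 by FPKM. The 19 genes whose difference between lines excluded 0 became 12 with the GC trend subtracted.

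Values of called genes turned sign in NCM460 for VMP1 with the GC trend subtracted (-0.54) and for BECN1 by FPKM (-0.39). Between the controls they turned with total fragments for ULK1 (0.0851), ATG9A (0.40), GABARAPL2 (0.26) and ATG4B (0.36), with the GC trend subtracted for ULK1 (0.0925), ATG9A (0.12) and ATG4B (0.18), and by FPKM for WIPI2 (-0.45). The cause was not tested beyond the construction of each setting. Without the shared loci of GABARAP and ATG9A, 18 of 33 genes were called higher in HT-29, and 8 of 32 were higher and 5 lower in NCM460. The test of the change shared by both lines compares treatment within lines, since line is a term of its model. The labels give no replicate numbers that could pair libraries further, and with 1 library per condition none could be left out. Depth limits NCM460 most, where 14 of the 35 genes had under 10 control fragments.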

Other observations

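Some receptors and regulators outside the 35 genes, chosen after their values were seen, had large changes in HT-29. The locus of CCPG1, a receptor for endoplasmic reticulum, which it shares with DYX1C1, had 58 and 480 fragments in HT-29 and 1 and 7 in NCM460, with an HT-29 log2 fold change of 2.76 (2.42 to 3.24). CALCOCO1, a paralogue of CALCOCO2 known for endoplasmic reticulum and Golgi cargo, had 38 and 136 fragments in HT-29 and 19 and 17 in NCM460, with 1.54 (1.08 to 2.17). TP53INP1, a paralogue of TP53INP2, had 2 and 35 fragments in HT-29 and 7 and 14 in NCM460, with 2.82 (1.94 to 7.00). SESN2, a stress-induced inhibitor of mTORC1, had 28 and 188 fragments in HT-29 and 22 and 17 in NCM460, with 2.41 (1.94 to 3.14). TMEM41B, a scramblase that acts with VMP1, had 93 and 381 fragments in HT-29 and 3 and 27 in NCM460, with 1.77 (1.47 to 2.15) in HT-29 and 2.36 (1.00 to 5.06) in NCM460, or 1.28 (-0.08 to 3.99) there with the GC trend subtracted.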
